A study of Drosophila melanogaster with 4 samples.

Results

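Rab genes encode small GTPases that mark membranes of the secretory and endocytic routes. A Rab bound to GTP sits on its membrane and recruits tethers, motors and sorting proteins, while exchange factors load it with GTP and GTPase-activating proteins switch it off. In wing imaginal discs, larval epithelia that later make the wing blade, hinge and notum, these routes carry secreted signals such as Wingless, Dpp and Hedgehog, their receptors and junction proteins. The members were taken by symbol, as every gene whose name starts with Rab or RabX followed by a number and that has a probe set of its own in the array's annotation. There were 25 such genes among 11981 named genes, with 26 probe sets, and a gene with more than 1 probe set took the one with the highest mean. Of the 25, 22 are Rab GTPases and 3 are regulators whose names begin with Rab3 (Rab3-GEF, Rab3-GAP and Rab3GAP1). The RefSeq gene table holds 36 symbols of this form. Rab1, Rab4, Rab5, Rab6, Rab7, Rab8 and Rab11, among the best known markers of the routes, are not analysed here, and Rab9Fa, Rab9D, Rab9E and Rab9Db share a probe set that stayed under the floor on all 4 arrays.

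Discs from 3rd-instar larvae kept at 25 degrees were profiled with 1 array for each of 4 genotypes. All were yw flies with 1 copy of en-Gal4: alone (control), with UAS-PI3K (PI3K), with UAS-Hdac3 RNAi (Hdac3 RNAi), and with both transgenes (PI3K plus Hdac3 RNAi). The en-Gal4 driver is active in posterior cells only, so each extract holds anterior cells without transgene expression too. In such bulk samples fewer cells of a type and less RNA per cell cannot be told apart. The comparisons ask how PI3K, a lipid kinase that drives growth, and loss of the histone deacetylase Hdac3 bear on each other. Hdac3 and the PI3K genes are not analysed here, so the genotypes rest on the labels. No replicate error exists, so no difference below carries a test, and every ratio compares single arrays. As a partial guide to measurement error, probe sets of the same gene were compared on the same arrays. Within a gene, their log2 ratios differed by an SD of 0.24 in PI3K against control and 0.18 in Hdac3 RNAi against control. The SD was 0.15 in both transgenes against Hdac3 RNAi. It leaves out differences between animals, dissections and arrays, which all probe sets of an array pair share.

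All 11 annotated wing disc markers were above the floor on all 4 arrays, with nub, the pouch gene nubbin, at 2642 in control. Transcripts of neighbouring tissue varied between the arrays. The 4 annotated fat body markers summed to 2987, 12597, 6358 and 784 in control, PI3K, Hdac3 RNAi and double-transgene discs. Salivary gland markers summed to 665, 4184, 679 and 488 in the same order, and gut markers to 1349, 3765, 1135 and 159. Of these lists, 4 of 4 fat body, 6 of 7 salivary gland and 3 of 5 gut markers reached the floor on at least 1 array, and Sgs1, Jon99Ci and Mal-A1 did not. Wing disc markers summed to 9795, 7781, 10907 and 10181, lowest in PI3K discs. Hemocyte markers summed to between 3602 in PI3K discs and 4916 with Hdac3 RNAi, and trachea markers to between 8156 in control and 10876 with both. Sums ran from 1159 to 1403 for muscle precursors, 231 to 374 for differentiated muscle and 340 to 437 for neurons and glia, each lowest in PI3K discs. Of 5 testis genes, 1 reached the floor, in PI3K discs alone. Of the 3 posterior compartment genes, inv, the paralogue of engrailed, was at 50.0 in control discs against 227, 215 and 254 in PI3K, Hdac3 RNAi and double-transgene discs, so the control array stands apart there, while engrailed itself (en) ran from 1150 to 1428. The part of these differences in the Rab values was not tested.

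Levels are scaled intensities, comparable between arrays for 1 probe set but not between genes. The floor of 26.9 is a level that 90% of values of odorant and gustatory receptor probe sets stay under. Of the 25 members, 20 were at or above it on all 4 arrays, as were 7301 of all 11981 genes. The other 5 were under it on all 4: Rab3 and Rab26, which act on synaptic or secretory vesicles, Rab3-GEF, the exchange factor of Rab3, and Rab9Fb and RabX5. The second probe set of Rab26 was also under the floor on all 4 arrays. Of the 20 measured members, 14 differed by less than 0.32 log2, or 25%, between their highest and lowest array (70%, against 64.5% of the 7301 genes measured on all 4 arrays). That share is near the background, so evenness across genotypes is not particular to the Rab genes.

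**Figure D1:**
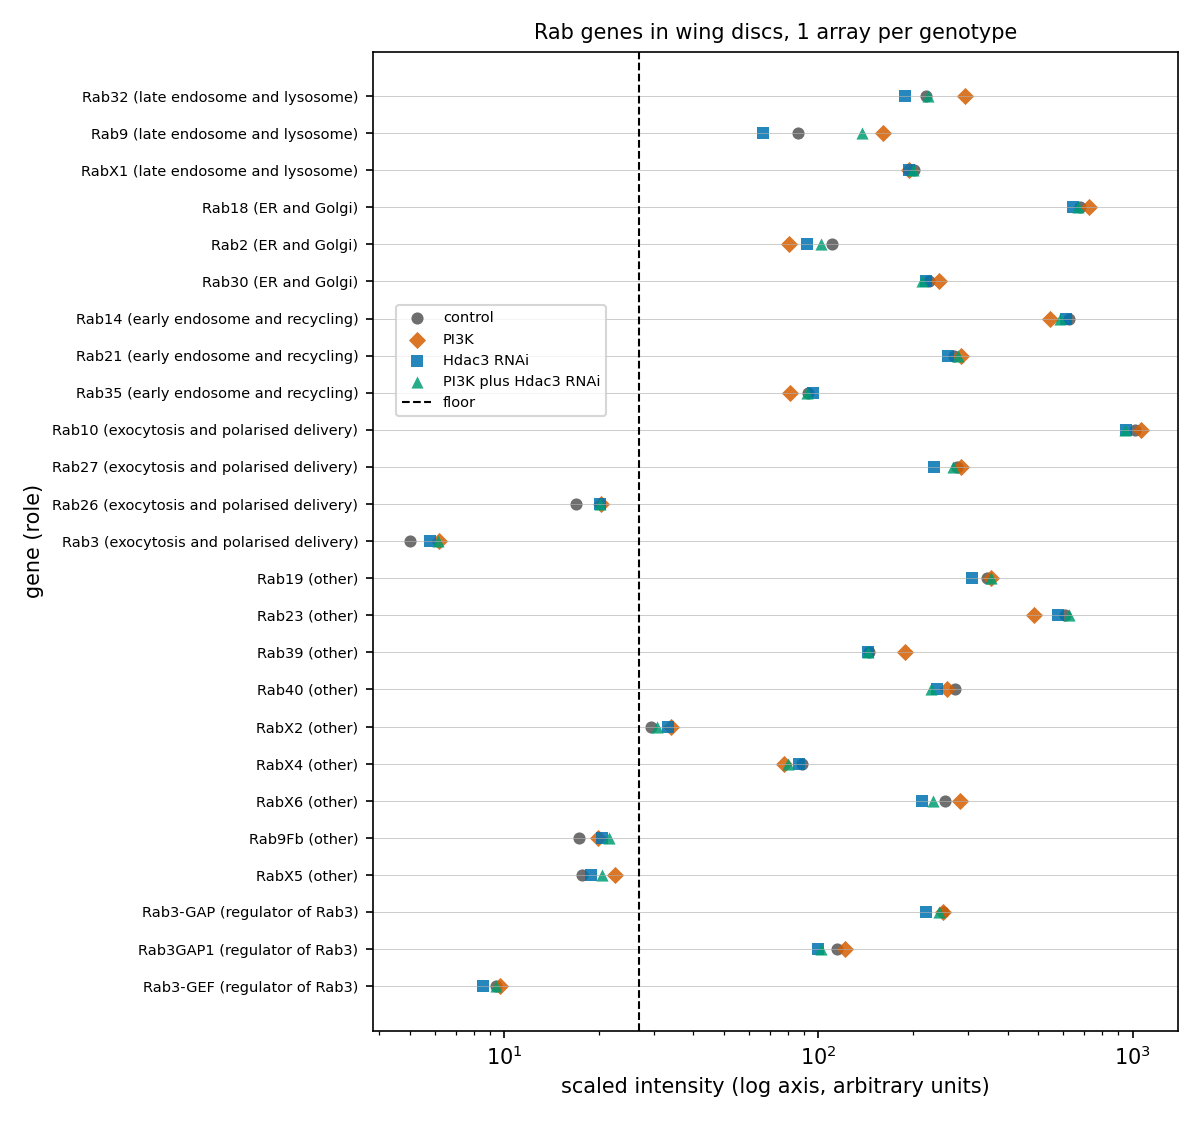
Scaled intensity (log axis) of the 25 Rab genes, grouped by role, with 1 point for each genotype's array and the floor of 26.9 as a dashed line. Most rows are tight clusters, Rab9 spreads from 66.7 to 160.4, and 5 genes lie left of the floor on all 4 arrays.

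Rab9 stood apart from the other members. In mammalian cells Rab9 returns cargo receptors from late endosomes to the trans-Golgi network. Control discs had an intensity of 86.3, PI3K discs 160.4, Hdac3 RNAi discs 66.7 and discs with both transgenes 137. Both arrays with UAS-PI3K were above both arrays without it. The log2 ratio was 0.89 for PI3K against control (1.86-fold), where 74 of 7436 genes were higher. Against the Hdac3 RNAi array, discs with both transgenes had 1.04 (2.06-fold), where 8 of 7456 genes were higher. These 2 contrasts share no array. Both values exceed 3 times the SD between probe sets of a gene, which does not measure the spread between arrays of a genotype. With Hdac3 RNAi the Rab9 values were lower, at -0.37 without PI3K, where 96.1% of genes were higher, and -0.22 with it. The ratio of 1.04 is taken against that Hdac3 RNAi array, the lowest of the 4 for Rab9. The departure from additivity, which is the Hdac3 RNAi effect in PI3K discs minus that without PI3K, was 0.15.

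Rab9 was the only measured member at least 0.32 log2 higher in both PI3K contrasts, 1 of 20 or 5%, against 0.945% of all 7301 genes. Its lower PI3K array was 1.59 times its higher array without PI3K, the 3rd highest such ratio of 7301 genes. The 2 above it were the odorant-binding protein gene Obp56d (ratio 2.18) and CG31676 (1.59). Fat body, salivary gland and gut markers were highest in PI3K discs, as Rab9 was, and lowest in discs with both transgenes, where Rab9 was 1.59-fold above control. Their part in the Rab9 values was not tested. The chromosome of the gene also moves with the result. Rab9 lies on arm 2L, and the labels place UAS-PI3K opposite en-Gal4, a chromosome 2 insertion. Of the 37 genes at least 0.32 log2 higher by that order of arrays, 26 lie on chromosome 2 (70.3%), which holds 38.0% of the measured genes. Whether Rab9 goes with PI3K activity or with the chromosome that carries the transgene cannot be told apart in these arrays. The 10 nearest measured neighbours of Rab9, 5 on each side, had log2 ratios from -0.08 to 0.44 in PI3K against control, where 1 of them, CG17544 at 0.44, was at least 0.32 higher. In both transgenes against Hdac3 RNAi they ran from -0.27 to 0.18, and 0 were 0.32 apart. The flanking genes RtcB and CG10237 had PI3K against control ratios of 0.18 and 0.23. The neighbours, the chromosome counts and the 2 genes ranked above it were chosen after the Rab9 values were seen.

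**Figure D2:**
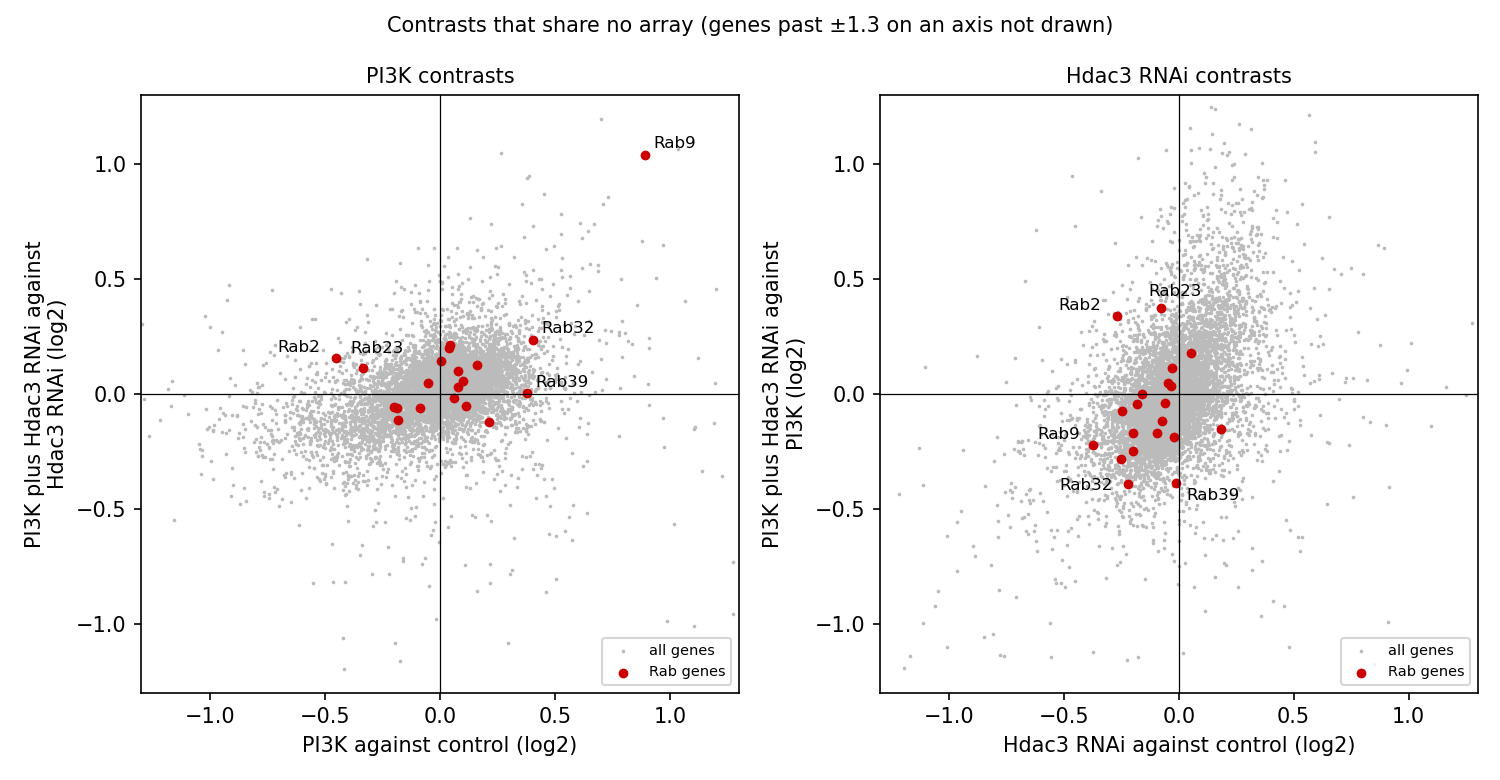
Log2 ratios of the PI3K contrast without and with Hdac3 RNAi (left) and of the Hdac3 RNAi contrast without and with PI3K (right); each point is a gene, Rab genes are red, and genes past 1.3 on an axis are not drawn. Rab9 lies at 0.89 and 1.04 on the left, at the edge of the cloud of all genes, while Rab2 and Rab23 fall in the upper left of both panels.

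The other late endosomal members were Rab32 and RabX1. Rab32, known in flies as lightoid and needed for the pigment granules of the eye, which are lysosome-related organelles, had 220.4 in control discs, 292 in PI3K discs, 189 with Hdac3 RNAi and 223 with both. It was highest in PI3K discs, by 0.41 against control (1.32-fold), and at -0.39 in discs with both transgenes against PI3K alone. Those 2 ratios share the PI3K array. The contrast without that array, both transgenes against Hdac3 RNAi, gave 0.24. Rab32 was thus higher with UAS-PI3K in both backgrounds, past 0.32 in the first only. RabX1 was the most even member, at 201, 194, 194 and 201 in control, PI3K, Hdac3 RNAi and both. Fat body markers, too, were highest in PI3K discs, and they were lowest in discs with both transgenes, where Rab32 was 0.01 from control. Their part in the Rab32 values was not tested.

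Members of the endoplasmic reticulum and Golgi were Rab2, Rab18 and Rab30. Rab2, which acts in traffic between these compartments and, in flies, in the fusion of late endosomes and autophagosomes with lysosomes, had 111 in control discs, 80.8 in PI3K discs, 91.9 with Hdac3 RNAi and 102 with both. Control was highest and PI3K lowest, a log2 ratio of -0.45 (1.37-fold lower). With Hdac3 RNAi added to PI3K it was higher by 0.34, whereas Hdac3 RNAi without PI3K came with -0.27. The departure from additivity of 0.61 was the highest of the members, and 145 of 7301 genes had a higher one. Rab18, a Rab of lipid droplets and the endoplasmic reticulum in mammalian cells, ranged only from 647 in Hdac3 RNAi to 729 in PI3K, and Rab30, a Golgi Rab, from 213 with both to 243 in PI3K.

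The early endosomal and recycling members varied little. Rab14, which in flies serves phagosome maturation in blood cells, had 626, 545, 613 and 589 in control, PI3K, Hdac3 RNAi and both. Rab35, which acts in recycling to the plasma membrane, had 92.7, 81.5, 96.2 and 92.2. Both were lowest in PI3K discs, at -0.20 and -0.19 against control, within the SD of 0.24 between probe sets of a gene. Rab21, an early endosomal Rab tied to integrin traffic in mammalian cells, had 259 in Hdac3 RNAi to 285 in PI3K. In polarised delivery, Rab10, which in the fly egg chamber directs basement membrane secretion, had 1019.7, 1063, 956 and 944. Rab27, a Rab of secretory granules in mammals, had 276, 284, 233 and 269 and was lowest with Hdac3 RNAi alone (-0.25).

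Rab23 and Rab39 were the other members past 0.32 log2 in a comparison. Rab23, a repressor of Hedgehog signalling in the mouse that helps restrict hair number and orientation in the fly wing, had 611 in control discs, 484 in PI3K discs, 579.6 with Hdac3 RNAi and 627 with both. The PI3K array alone was low, at -0.33 against control, and discs with both transgenes were at 0.37 against it. Rab39 had 145, 188, 144 and 144 in the same order. Here the PI3K array alone was high, at 0.38 against control, and the other 3 arrays lay within 1.01-fold of each other. Without the PI3K array neither gene stood out: in both transgenes against Hdac3 RNAi, Rab23 was at 0.11 and Rab39 at 0.00. Fat body, salivary gland and gut markers were also highest on the PI3K array, and fat body markers spanned 784 to 6358 on the other 3. Their part in the Rab39 values was not tested.

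The remaining measured members were less than 0.32 log2 apart in all 5 comparisons. Rab40, which carries a SOCS box and serves as an adaptor of ubiquitin ligases, had 273, 257, 238 and 228 in control, PI3K, Hdac3 RNAi and both, with -0.26 for both against control. Rab19 ranged from 308 to 354, RabX4 from 77.9 to 88.5 and RabX6 from 213 to 283, with Hdac3 RNAi lowest for Rab19 and RabX6. RabX2 lay just above the floor, at 29.3 in control to 33.9 in PI3K. The subunits of the complex that stimulates GTP hydrolysis by Rab3 were measured although Rab3 itself was under the floor. Rab3-GAP had 249, 249.7, 219 and 242, and Rab3GAP1 had 115, 121, 99.98 and 102, both lowest with Hdac3 RNAi. In mammals the same complex also activates Rab18.

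**Figure D3:**
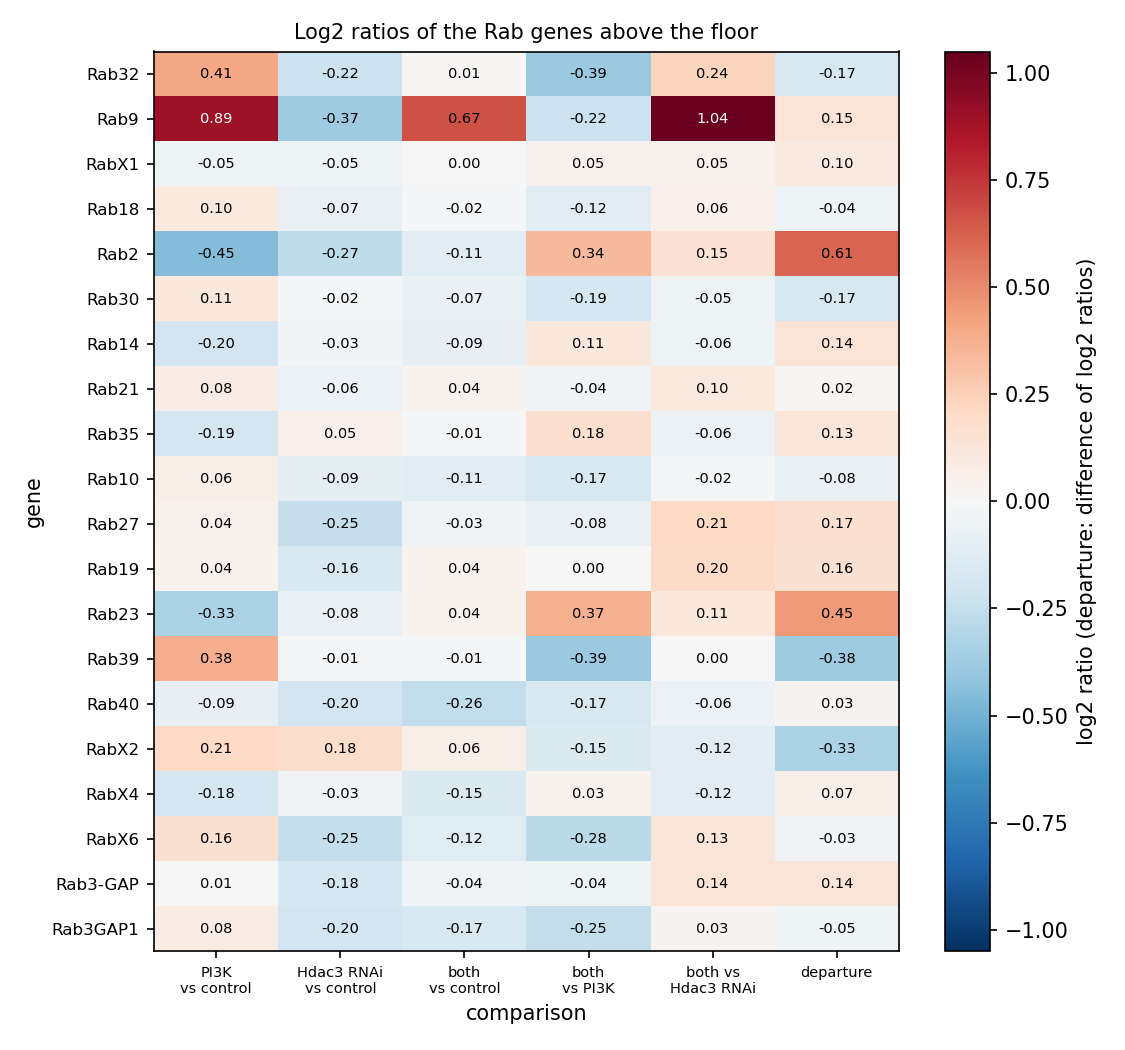
Log2 ratios of the 20 Rab genes above the floor in the 5 comparisons, and the departure from additivity, as coloured cells with printed values; both stands for PI3K plus Hdac3 RNAi. The Rab9 row is red in the 3 comparisons that add PI3K (0.89, 0.67 and 1.04), and the Hdac3 RNAi against control column is blue in 18 of 20 rows.

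PI3K against control put 3 members at least 0.32 log2 higher (Rab9, Rab32 and Rab39), where 6.70% of 7436 genes were, and 2 lower (Rab2 and Rab23), where 10.5% were. None was 2-fold apart, against 0.847% of genes higher and 0.390% lower. The members' median log2 ratio was 0.05 against 0.02 for all genes, and 13 of 20 were above 0, against 54.4% of genes. These directions depend on the scaling: with arrays scaled to 1 median, 7 of 20 members and 37.0% of genes were above 0, and the medians were -0.031 for the members and -0.056 for all genes. The same 13 members were highest on the PI3K array at the main scaling, against 40.9% of genes. With arrays scaled to 1 median, only the 7 above 0 could be highest there. Longer genes had lower ratios here (Spearman correlation -0.46 between log2 ratio and gene span over 7271 genes, which share the 2 arrays). The measured members span 791 to 16336 bases with a median of 3180 (3179.5), close to 2715 for all measured genes. Rab2 spans 2731 bases, Rab9 3268 and Rab23 5381, and the part of gene length in their values was not tested. With Hdac3 RNAi present, PI3K put 1 member at least 0.32 log2 higher (Rab9, against 2.96% of 7456 genes) and 0 lower (3.11% of genes). Rab9 was also past 2-fold, as 0.134% of genes were, and 13 of 20 members were above 0, against 56.5%. The median was again 0.05, with 0.02 for all genes.

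Hdac3 RNAi against control showed small ratios in 1 direction. Of the 20 measured members, 18 had a log2 ratio below 0, or 90%, against 57.4% of 7407 genes, with Rab35 and RabX2 above 0. The median was -0.08 against -0.03 for all genes. Only Rab9 was at least 0.32 log2 lower (5.45% of genes were) and 0 were higher (4.05% of genes). The 12 measured autosomal members were all below 0, with a median of -0.17, and of the 8 on the X chromosome 6 were below 0, with a median of -0.07. Medians over all genes were -0.02 on the autosomes and -0.03 on the X. On the PI3K background, Hdac3 RNAi came with 14 of 20 members below 0 (56.3% of 7475 genes were) and a median of -0.10 against -0.03. There Rab2 and Rab23 were at least 0.32 log2 higher (9.40% of genes) and Rab32 and Rab39 lower (7.09% of genes). Sizes in Hdac3 RNAi against control are within the probe-set SD of 0.18 except for Rab2, Rab3-GAP, Rab3GAP1, Rab9, Rab27, Rab32, Rab40, RabX2 and RabX6. On the PI3K background they are within its SD of 0.24 except for Rab2, Rab3GAP1, Rab23, Rab32, Rab39 and RabX6. The counts depend on the scaling. In Hdac3 RNAi against control 2 of 20 members were above 0, against 42.6% of genes. With quantile normalization 5 of 20 were, against 45.4%. With arrays scaled to 1 median 2 of 20 were, against 31.8%. The Hdac3 RNAi array was the lowest of the 4 for 10 members, against 35.6% of genes, and the highest for Rab35 alone, against 21.7%.

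In discs with both transgenes against control, Rab9 (0.67, 1.59-fold) was the 1 member at least 0.32 log2 higher, against 3.96% of 7397 genes, and 0 were lower, against 4.61%. Here 42 genes were higher than Rab9. The median was -0.03 against -0.01 for all genes, 6 of 20 members were above 0, against 45.2% of genes, and the lowest was Rab40 at -0.26. Rab2, Rab23, Rab32 and Rab39, which differed in PI3K discs, were at -0.11, 0.04, 0.01 and -0.01. For the departure from additivity, 2 members were at least 0.32 above 0 (Rab2 and Rab23, against 8.93% of 7301 genes) and 2 below (Rab39 and RabX2, against 6.15%), with RabX2 next to the floor. Those shares are near the background.

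The machinery around the Rabs was read from lists fixed by name, and their counts stand against shares over all genes of 57.4% below 0 in Hdac3 RNAi against control, and 45.6% below and 54.4% above 0 in PI3K against control. The all-gene medians are -0.03 and 0.02. Of the genes for prenylation, exchange and GTP hydrolysis, 20 of the 22 named were measured, 2 of them also counted above. With Hdac3 RNAi against control 15 of 20 were below 0, median -0.11. Rep, the escort protein that presents new Rabs for prenylation, had 359 in control discs, 423 in PI3K discs, 271 with Hdac3 RNAi and 341 with both. Rep was lowest with Hdac3 RNAi, as were Rab9 and 35.6% of the 7301 genes measured on all 4 arrays. It was higher with PI3K in both backgrounds, at 0.24 and 0.34. Unlike Rab9, it was below control in discs with both transgenes, at -0.07. Ccz1, which with Mon1 activates Rab7, was lower with Hdac3 RNAi, at -0.37, and Mon1 was at -0.03. The list's PI3K against control median was -0.01. There 0 of 20 genes were at least 0.32 log2 higher (6.70% of all genes) and 2 lower (10.5% of all genes). The lowest was the GTPase-activating protein gene Evi5, at -0.61.

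Among Rab effectors and golgins, 19 were measured, 13 of them below 0 in PI3K against control, where 45.6% of genes were, and 15 below 0 in Hdac3 RNAi against control (medians -0.10 and -0.09). The Rab11 effector nuf, which in the fly embryo guides recycling endosomes, had 1008 in control discs, 693 in PI3K discs, 1279 with Hdac3 RNAi and 1137 with both. The Golgi stacking protein gene Grasp65 had 476, 594, 421 and 451, so these 2 genes were opposite in order. Of 16 tethers of the HOPS, CORVET and exocyst complexes, 13 were below 0 with Hdac3 RNAi, median -0.15. Their HOPS subunit Vps11 was lowest in PI3K discs (-0.47) and 0.58 higher with both. Of 12 SNAREs, the proteins that fuse the membranes which Rabs and tethers bring together, 11 were below 0 with Hdac3 RNAi (median -0.11) and 10 above 0 in PI3K against control (median 0.10). The 11 include nSyb, which was at 21.2 with Hdac3 RNAi, under the floor, so its ratio of -0.08 is set by the floor. Sec20 was the lowest with Hdac3 RNAi, at -0.49. Of 11 COPI and COPII coat genes, 10 were below 0 with Hdac3 RNAi (median -0.11) and 8 above 0 with PI3K (median 0.08). Of 16 ESCRT genes, which sort cargo into late endosomes, 12 were below 0 with Hdac3 RNAi (median -0.05) and 11 above 0 with PI3K (median 0.05). Their Vps25 was above control on all 3 other arrays, with 708 in control discs, 1082 in PI3K discs, 921 with Hdac3 RNAi and 926 with both.

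Retromer and sorting nexin genes, 8 in number, had 4 on each side of 0 with Hdac3 RNAi and 5 below 0 with PI3K (medians -0.02 and -0.03), and the sorting nexin gene Snx16 was 0.47 higher with PI3K and 0.35 higher when PI3K was added to Hdac3 RNAi. Clathrin and adaptor genes had a median of -0.01 with Hdac3 RNAi and -0.13 with PI3K over 15 genes. The list of Arf, Arl and Sar GTPases had 3 measured genes of 14 named, with medians of -0.06 with Hdac3 RNAi and 0.02 with PI3K.

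**Figure D4:**
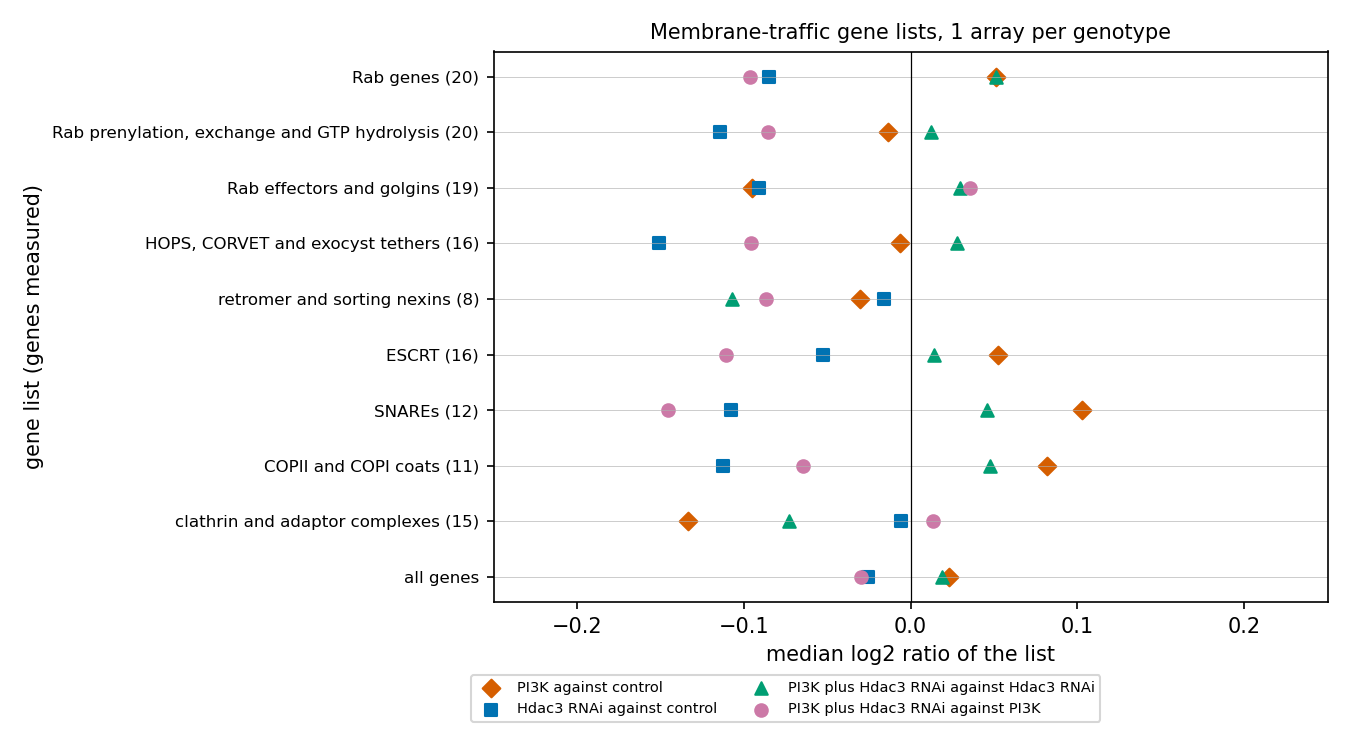
Median log2 ratio of the Rab genes, of 8 other lists with at least 8 members measured on all 4 arrays, and of all genes, with 1 symbol for each of 4 comparisons and the number of genes measured in brackets. The Rab genes sit at -0.08 in Hdac3 RNAi against control and at 0.05 in both PI3K contrasts.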

How the data were processed

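Linear intensity values were deposited by the authors as 1 table of 18952 probe sets for 4 arrays. MAS5 is named per the submitters' processing notes, with no version or settings, and cRNA was biotin-labelled per the labels' protocols. Whether discs or animals were pooled is not given in the sources used here. Deposited values run from 4.12 to 23003, and the number of arrays limits their precision.

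Probe sets were named from the array annotation of 2016, and chromosomes and gene spans come from the RefSeq gene table of Release 6. Only probe sets with 1 symbol were kept, 13646 for 11981 genes. Each array was scaled to a common 2% trimmed mean (factors 0.989 to 1.01), values under 26.9 were raised to that floor, the 90th percentile of 125 odorant and gustatory receptor probe sets, and log2 was taken. Counts use genes that reach the floor on both arrays (all 4 for the departure). Medians, and counts above or below 0 in the traffic lists, use genes above it on at least 1 array. No test was run, since each genotype has 1 array. Named genes are all members, with every array given for those at least 25% (0.32 log2) apart in a comparison, and some extremes of the traffic lists. The result of 1 further traffic list is not reported here. Further members and Rep, Ccz1 and Mon1 were added after their values were seen. The members and lists were chosen with earlier results of these data known. Python 3.11.15, numpy 2.4.6, pandas 2.3.3, scipy 1.17.1 and matplotlib 3.10.9 were used.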

Additional observations from a re-analysis of the deposited data

Results flagged for a closer look

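In Rab2, Rab23 and RabX2 each transgene came with a higher value in one background and a lower value in the other, and the departure from additivity was at least 0.32 log2 in size. The departures were 0.61 for Rab2, 0.45 for Rab23 and -0.33 for RabX2. The share of all genes that meet this rule was not computed. By the departure alone, 2 members were at least 0.32 higher, against 8.93% of 7301 genes, and 2 lower, against 6.15%, near the background. With arrays scaled to 1 median, 0 members were that much lower. In each gene the PI3K and Hdac3 RNAi changes between backgrounds are the same departure, so they are 1 observation. For Rab2 the PI3K ratio was -0.45 without and 0.15 with Hdac3 RNAi, and the Hdac3 RNAi ratio -0.27 without and 0.34 with PI3K. For Rab23 the PI3K ratio was -0.33 and then 0.11, and the Hdac3 RNAi ratio -0.08 and then 0.37. For RabX2, which lay next to the floor, the PI3K ratio was 0.21 and then -0.12, and the Hdac3 RNAi ratio 0.18 and then -0.15. These differences were not tested, because each genotype has 1 array and all 4 arrays enter every departure. Probe sets of the same gene differed in the departure by an SD of 0.24.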

How the results depend on the processing

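The 8 alternatives changed the scaling, the floor, the choice of probe sets or the membership. Single-member ratios of Rab2, Rab9, Rab23, Rab32 and Rab39 moved by less than the SD between probe sets of a gene in all 234 recomputed values. Only the changes of scaling could move them, since each of these genes has 1 probe set and lay above the doubled floor. Rab32 dropped out where probe sets of shared type were left out. Group medians, all near 0, depend on the scaling. With arrays scaled to 1 median they were -0.031 for PI3K against control (turned in sign), -0.13 for Hdac3 RNAi against control, -0.082 for both against control and 0.12 for the departure. Members above 0 in PI3K against control then numbered 7 of 20 in place of 13, and in both against control 2 in place of 6. This scaling moves all genes above the floor alike: the all-gene median of PI3K against control went from 0.023 to -0.056, below that of the members in either case. With quantile normalization the medians of both against control (0.0096) and of the departure (-0.00058) turned in sign, 1 member was at least 0.32 log2 lower in PI3K against control and 1 in the departure, and 11 of 20 members were above 0 in both against control and 5 in Hdac3 RNAi against control. For the departure, members at least 0.32 log2 lower numbered 0 with scaling to 1 median, 1 on the values as deposited and 1 with the floor doubled, against 2. Without probe sets of shared type, 13 members were measured and 1 was at least 0.32 log2 lower in both against PI3K, in place of 2. In all, 90 of 96 recomputed counts stayed within 1.5 times those reported. Of 48 medians, 42 kept their sign and moved by less than the probe-set SD divided by the square root of the number of members. Part of these could not change. Every measured member has 1 probe set, so averaging probe sets gave the same values. The measured Rab3 regulators never reached 0.32 log2, so leaving them out could not alter the counts. No paired analysis was possible because each genotype has 1 array. A signal near the floor, as for RabX2, limits the smallest ratio that can be read.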

Other observations

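The labels write UAS-Hdac3 RNAi on another chromosome than UAS-PI3K. Of the genes whose 2 arrays with UAS-Hdac3 RNAi were at least 0.32 log2 below both arrays without it, 51 of 84 lie on chromosome 3 (60.7%), and of those above, 18 of 30 do (60.0%), where chromosome 3 holds 44.1% of measured genes. None of these genes is a Rab, where 1.15% of the 7301 measured genes were in the lower group and 0.411% in the higher. With shares that small, the absence of a Rab is near the background. Of the genes lower with UAS-PI3K by the same order, 12 of 21 lie on chromosome 2 (57.1%, against 38.0% of measured genes). These shares were computed after the Rab9 values were seen.

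In the traffic lists the largest ratios of Hdac3 RNAi against control belonged to Arl8, a small GTPase that couples lysosomes to kinesin transport, and strat, whose mammalian relative is a chaperone of nucleotide-free Rab proteins. Arl8 had 308 in control discs, 298 in PI3K discs, 484 with Hdac3 RNAi and 409 with both, so both arrays with UAS-Hdac3 RNAi were above both without it (log2 ratios 0.65 and 0.46). The gene strat had 336, 362, 525 and 313 in the same order and was high on the Hdac3 RNAi array alone.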
